A study of Mus musculus with 70 samples.

Results

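Transcripts of 8 receptors that guide the movement of lymphoid cells were followed through early innate lymphoid development in mouse bone marrow. The genes were the chemokine receptors Ccr2, Ccr7, Ccr9, Cxcr3, Cxcr4, Cxcr5 and Cxcr6 and the sphingosine-1-phosphate receptor S1pr1. They were picked by name, as the records of 2 count tables whose gene identifier belongs to these receptors. All 8 were found among the 27179 genes of the tables. The choice was made with earlier results of these data known, so counts of receptors called are not those of a set chosen blindly. The study sorted pools of 100 cells per well and sequenced each pool by CEL-seq, a method that counts short reads from the 3′ ends of polyadenylated transcripts.

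The wild-type (WT) mice supplied 5 populations. These were CLP (8 libraries), an early lymphoid progenitor, CLP that express the integrin α4β7 (a4b7_CLP in the labels, 5 libraries), CILP (7 libraries), the progenitor labelled ILCP (3 libraries), and ILC2P (8 libraries), the progenitor of group 2 innate lymphoid cells. The design text lists a Sca1+ CILP and no ILCP, and the sources used here do not say whether these are the same cells. Mice labelled TCF7 (Tcf7-/-, lacking the transcription factor TCF-1) gave CLP (5 libraries), CILP (4) and ILC2P (2). Mice labelled Id2 (Id2-/-, lacking the inhibitor of E proteins ID2) gave CLP (2), CILP (2) and 1 ILCP library. The labels give no age, strain, Cre driver or animal for any group, so p-values measure the spread between these sorted pools, which may in part be technical. The libraries came in 2 batches. All 5 Id2 libraries were in batch 1 and both TCF7 ILC2P libraries in batch 2.

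Chemokine receptors are G protein-coupled receptors that turn a gradient of chemokine into directed migration, mainly through Gi proteins. In bone marrow CXCR4, the receptor for CXCL12, holds haematopoietic progenitors near stromal cells, and S1PR1 senses sphingosine-1-phosphate in blood and lymph and favours exit. CCR9 (ligand CCL25) serves homing to thymus and small intestine, CCR2 (ligand CCL2) serves release of monocytes from marrow, CXCR6 binds CXCL16, CCR7 and CXCR5 guide cells to lymph nodes and B cell follicles, and CXCR3 guides effector lymphocytes to sites of interferon response.

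The 47 libraries compared held 19322 to 624668 counts (median 134985), and the ILC2P of WT mice were the shallowest group, at 19322 to 80873 counts. Levels are in CPM, counts set to a common library total after scaling by trimmed mean of M values, as mean ± SD over libraries. In 12 wells labelled as controls, 23418 counts in all held 8 reads of Cxcr4, 3 of Ccr9, 1 of Ccr2 and 0 of the other 5 receptors. The Cxcr4 reads came from 3 wells and the Ccr9 reads from 1. As a share of the wells' pooled counts, Cxcr4 lay above its mean level in every WT group given below. Ccr9 lay above its means in CLP, α4β7+ CLP and CILP. The part of such background in the levels of these receptors was not tested. The labels were in part borne out by marker transcripts: Flt3 averaged 401 ± 147 CPM in CLP (n = 8) and 3.7 ± 9.8 in CILP (n = 7), Zbtb16 averaged 339 ± 111 CPM in CILP and 1.0 ± 3.0 in CLP, and Il1rl1, which encodes the IL-33 receptor of group 2 cells, averaged 991 ± 537 CPM in ILC2P (n = 8). The libraries labelled ILCP carried Il1rl1 at 1103 ± 727 CPM (n = 3) and Zbtb16 at 43.0 ± 54.1 CPM, so in these 2 markers they stood nearer to ILC2P than to CILP. In pools of cells, fewer cells that express a receptor and less RNA per cell cannot be told apart.

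Of the 8 genes, 4 lie on chromosome 9 (RefSeq coordinates, GRCm38.p6). Ccr9 spans chr9:123767211-123783457, Cxcr6 chr9:123806477-123811754 and Ccr2 chr9:124101918-124109140, so that 341.9 kb hold all 3 from the start of Ccr9 to the end of Ccr2, while Cxcr5 (chr9:44511787-44526444) lies 79.2 Mb away. The others are Ccr7 (chr11:99144199-99155077), Cxcr4 (chr1:128588199-128592299), S1pr1 (chr3:115710433-115715055) and Cxcr3 (chrX:101731535-101734147). Cxcr6 lies inside the span of Fyco1 on the opposite strand and shares 0 exonic bases with it, and Cxcr5 shares 110 exonic bases with Bcl9l on the opposite strand (GENCODE M21 exons). No source used here says whether the counting used strand, so for Cxcr5 reads of the partner could be included.

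The promoters of 4 receptors are shown because these genes carry the differences between populations described below and because the knockouts removed TCF-1 and an inhibitor of E proteins. Each window runs from 250 bases before to 50 bases after the first start site listed for the gene (GRCm38.p6). It is printed 5′ to 3′ on the strand of the gene. For Ccr9, Cxcr6 and Cxcr4 this site is the gene start given above. The Ccr2 window begins at 124101933, after the gene start of 124101918, so it lies wholly within the Ccr2 span. Promoter sequences were listed for 5 of the 8 genes. Capitals mark matches, on either strand, to the TCF/LEF core CTTTGA, the E box CANNTG and the GATA motif AGATAA. No 2 matches overlapped in the windows printed.
Ccr9 (chr9:123766961-123767260, + strand): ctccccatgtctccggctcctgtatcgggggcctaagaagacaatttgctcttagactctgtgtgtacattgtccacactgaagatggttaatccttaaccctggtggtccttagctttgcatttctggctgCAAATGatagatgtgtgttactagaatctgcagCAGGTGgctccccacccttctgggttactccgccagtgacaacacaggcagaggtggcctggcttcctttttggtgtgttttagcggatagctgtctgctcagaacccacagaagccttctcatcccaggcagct
Cxcr6 (chr9:123806227-123806526, + strand): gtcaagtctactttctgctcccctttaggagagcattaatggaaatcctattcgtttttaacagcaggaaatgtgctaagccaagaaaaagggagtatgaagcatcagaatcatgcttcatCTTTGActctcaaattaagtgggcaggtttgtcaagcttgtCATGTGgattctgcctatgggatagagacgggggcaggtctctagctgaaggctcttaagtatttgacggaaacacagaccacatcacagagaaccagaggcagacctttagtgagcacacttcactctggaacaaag
Ccr2 (chr9:124101933-124102232, + strand): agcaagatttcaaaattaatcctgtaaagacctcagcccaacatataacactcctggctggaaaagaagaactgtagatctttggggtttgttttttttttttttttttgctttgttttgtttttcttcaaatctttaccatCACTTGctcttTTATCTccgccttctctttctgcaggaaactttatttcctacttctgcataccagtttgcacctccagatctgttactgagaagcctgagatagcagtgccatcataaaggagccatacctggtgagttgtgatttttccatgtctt
Cxcr4 (chr1:128592250-128592549, − strand): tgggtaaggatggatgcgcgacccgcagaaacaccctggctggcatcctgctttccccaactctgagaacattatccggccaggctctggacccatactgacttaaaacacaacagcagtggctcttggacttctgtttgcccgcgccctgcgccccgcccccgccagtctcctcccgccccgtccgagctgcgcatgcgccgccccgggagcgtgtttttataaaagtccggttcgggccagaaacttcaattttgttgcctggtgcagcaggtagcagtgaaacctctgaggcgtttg

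The Cxcr6 window held 1 match to the TCF/LEF core and 1 E box, the Ccr9 window 2 E boxes, and the Ccr2 window 1 E box and 1 GATA motif. None of these letters occurred in the Cxcr4 window, which was the richest of the 4 in G and C (59.3%) and held 20 CpG dinucleotides, against 1, 3 and 4 in those of Ccr2, Cxcr6 and Ccr9. Among 32851 promoter windows of the same 300 bases, 16% held the TCF/LEF core, 72.3% an E box and 11.2% the GATA motif. A match is a description of the letters and not a binding site.

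In the WT populations the receptors fell into 4 patterns. Cxcr4 was highest in both CLP groups and lower afterwards. Ccr2 was near 0 in CLP, varied between α4β7+ CLP libraries and had its highest mean in CILP. Cxcr6 had no count in any CLP library, low in CILP and high in ILCP and ILC2P, and Ccr9 was high in ILCP and ILC2P. Ccr7 was at 0 in ILC2P, while Cxcr3, Cxcr5 and S1pr1 were low or scattered. Differences were tested with edgeR's quasi-likelihood test over 10972 genes, with batch as a term and Benjamini-Hochberg adjustment, and called at an adjusted p under 0.05. Of the 8 receptors 7 passed the filter on low counts, all but Cxcr3, and a gene can pass it through the group in which it is high.

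Between CLP and CILP, 3 receptors were called, Ccr2 and Cxcr6 higher and Cxcr4 lower in CILP. Over all genes 4.31% were called in this comparison, 2.34% higher and 1.97% lower. From α4β7+ CLP to CILP the same 3 receptors were called in the same directions, where 2.35% of all genes were called (0.911% higher, 1.44% lower), and from CLP to α4β7+ CLP 1 receptor was called (Ccr2, higher), where 0.0456% of all genes were (0.0273% higher). These 3 comparisons share samples and are not independent. From CILP to ILC2P, Ccr9 and Cxcr6 were called higher and Ccr7 lower, where 5.32% of all genes were called (1.1% higher, 4.22% lower). Across the whole span from CLP to ILC2P 5 receptors were called, Ccr2, Ccr9 and Cxcr6 higher and Ccr7 and Cxcr4 lower, where 11.5% of all genes were (3.46% higher, 8% lower).

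No receptor was called between ILCP and CILP (0.374% of all genes called) or between ILC2P and ILCP (0.483%). At an unadjusted p under 0.05, 3 of the 7 tested receptors differed in the first of these and 1 in the second. Of all 10972 genes, 1181 and 1361 did. DESeq2's Wald test called 2 and 0 receptors, and 92 and 51 of all genes. Over the 7 tested receptors the median log2 fold change from CLP to CILP was 0.77, against 0.06 over all genes, and from CILP to ILC2P it was -0.60, against -0.55 over all genes. The latter shift of all genes depends on scaling: it was -0.55 with trimmed mean of M values and -0.23 with median-of-ratios size factors, and fold changes of ILC2P are to be read against it.

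**Figure D1:**
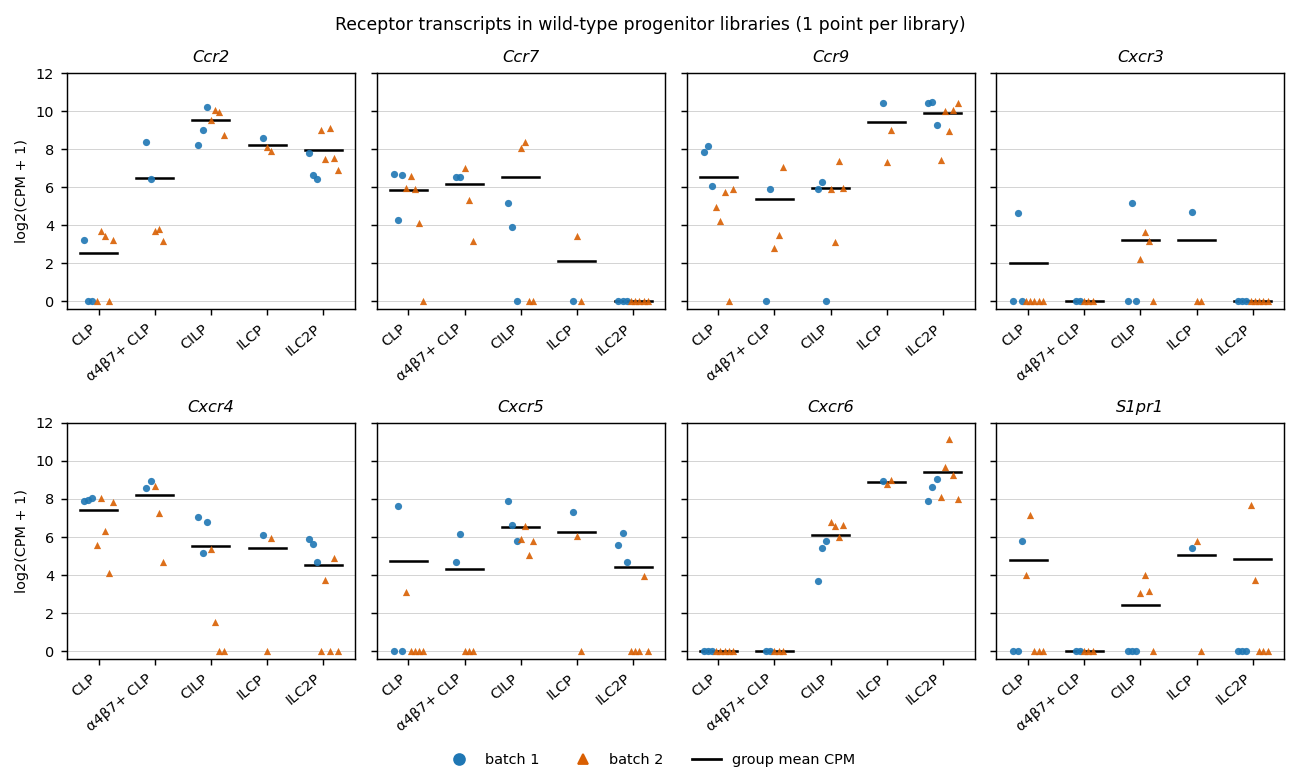
Level of each receptor in every WT library, as log2(CPM + 1), by population on the horizontal axis. Circles are batch 1, triangles batch 2 and bars the group mean. Cxcr6 is at 0 in all 13 CLP and α4β7+ CLP libraries and above 0 in all later ones, and Ccr7 is at 0 in all 8 ILC2P libraries.

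Cxcr4 had higher means in both CLP groups than in the later populations. It had counts in all 8 CLP libraries, with a lowest level of 16.3 CPM, a median of 232 and a highest of 264. In α4β7+ CLP the 5 libraries held 408, 151, 24.6, 378 and 490 CPM. The 7 CILP libraries held 130.6 CPM at most, with a median of 35.0, and 2 of them had no count.

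Means were 172 ± 106 CPM in CLP, 290 ± 195 in α4β7+ CLP, 45.4 ± 54.1 in CILP, 42.6 ± 37.1 in ILCP and 21.9 ± 23.2 in ILC2P. Here and below, groups are neighbours when their means are next to each other in rank. The ranges of neighbouring groups overlapped, and only CLP and CILP had neighbouring means more than 1 SD apart. The means of α4β7+ CLP and CILP, which are not neighbours in rank, also lay more than 1 SD apart. The fitted log2 fold change was -2.50 (SE 0.77, adjusted p = 0.0408) from CLP to CILP, -3.17 (SE 0.83, adjusted p = 0.0173) from α4β7+ CLP to CILP and -3.11 (SE 0.82, adjusted p = 0.00708) from CLP to ILC2P. Within batches the CLP to CILP difference was -1.49 in batch 1 (adjusted p = 0.366) and -3.42 in batch 2 (adjusted p = 0.307), and the call was lost without any 1 of 6 of the 15 libraries, with adjusted p from 0.0788 to 0.106. The difference from α4β7+ CLP was not called without α4β7+ CLP replicate 1 (adjusted p = 0.11) or CILP replicate 2 (adjusted p = 0.0534). Both batches also differed in level, with batch 1 above batch 2 in CLP (249 against 126 CPM) and in CILP (91.8 against 10.7 CPM).

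S1pr1, the egress receptor, was scattered. It was at 0 in all 5 α4β7+ CLP libraries, had counts in 3 of 8 CLP libraries (15.3, 143 and 55.1 CPM), 3 of 7 CILP (7.4, 15.2 and 7.9 CPM), 2 of 3 ILCP (54.3 and 42.1 CPM) and 2 of 8 ILC2P libraries (207 and 12.5 CPM). All 5 groups overlapped, every pair of neighbouring means lay within 1 SD, and no WT comparison called it.

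Ccr2 was low in CLP and high in CILP. Of the 8 CLP libraries 4 held any Ccr2 count, 6 counts in all, for a mean of 4.8 ± 5.3 CPM and a highest value of 11.9. The 7 CILP libraries ranged from 297 to 1207 CPM (median 739.8, mean 748 ± 346), so every CILP library lay above every CLP library. The means differed 155-fold and the fitted log2 fold change was 6.94 (SE 0.73, adjusted p = 1.28e-12), with 7.56 in batch 1 and 6.79 in batch 2 taken alone.

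After CILP the level of Ccr2 was 299 ± 70.9 CPM in ILCP (277, 242 and 379) and 246 ± 187 in ILC2P (lowest 86.9, median 181, highest 560.0). ILCP and ILC2P lay within 1 SD of each other and both overlapped CILP. ILC2P differed from CILP by -1.61 on the log2 scale (SE 0.56, adjusted p = 0.0663), and from CLP by 5.33 (SE 0.71, adjusted p = 9.8e-09) with no overlap.

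In α4β7+ CLP the Ccr2 values parted by batch. The 3 libraries of batch 2 held 12, 13.1 and 8.2 CPM, within or just above the range of CLP, and the 2 of batch 1 held 328 and 85.6. Pooled, the difference from CLP was called (log2 fold change 3.73, SE 0.76, adjusted p = 0.011). In batch 2 alone it was 0.75 (adjusted p = 1.0), and without replicate 4, the library at 328 CPM, it was 2.38 (adjusted p = 0.283). In replicate 4, 0.977% of counts fell on the 17 genes of a myeloid marker list, against at most 0.0766% in the other 4 libraries, and S100a8 alone reached 4296 CPM. Ccr2 is also a gene of monocytes, and the part of such cells in the difference was not tested. CILP lay above α4β7+ CLP by 3.21 (SE 0.71, adjusted p = 0.00283), by 1.76 in batch 1 (adjusted p = 0.329) and by 6.04 in batch 2 (adjusted p = 0.000425).

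Cxcr6 rose in 2 steps. It had no count in any of the 8 CLP or 5 α4β7+ CLP libraries, where 3 counts over the group would be 2.69 and 2.75 CPM. All 7 CILP libraries held it, at 11.9 to 111.5 CPM (median 63.5, mean 67.8 ± 35.2), at least 25.3-fold above the level of 3 counts in CLP and at least 24.7-fold above that in α4β7+ CLP (16-fold without α4β7+ CLP replicate 2). The fitted log2 fold changes, which depend on the prior count, were 6.38 (adjusted p = 3.48e-06) and 6.33 (adjusted p = 9.82e-05). In batch 1 alone both were 5.35 and neither was called (adjusted p = 0.114 and 0.176). In batch 2 alone both were 6.86 (adjusted p = 0.000535 and 0.0129).

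The second step followed CILP. ILCP held 439, 509 and 488 CPM (479 ± 35.6) and ILC2P 238 to 2320 CPM (median 458, mean 680 ± 693). The lowest library of either group lay above the highest CILP library, and ILCP and ILC2P overlapped. From CILP to ILC2P the log2 fold change was 3.26 (SE 0.67, adjusted p = 0.000967), with 3.36 in batch 1 (adjusted p = 0.0856) and 3.26 in batch 2 (adjusted p = 0.057). From CILP to ILCP it was 2.87 (SE 0.76), and the adjusted p of 0.0635 missed the threshold, although the 3 ILCP libraries did not overlap with CILP. From CLP to ILC2P the means differed at least 253-fold (adjusted p = 5.25e-13). ILC2P replicate 3, at 2320 CPM in a library of 26072 counts, moved these folds: without it ILC2P was at least 166-fold above CLP, and 6.56-fold above CILP.

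Ccr9 rose only after CILP among the steps tested. CLP held 0 to 287 CPM (median 56.2, mean 92.9 ± 105), α4β7+ CLP 41.2 ± 55.4 and CILP 0 to 167 CPM (median 59.5, mean 61.7 ± 54.7), and these 3 groups overlapped, with neighbouring means within 1 SD. Within CLP the 3 libraries of batch 1 (229, 287 and 66.1 CPM) all lay above the 5 of batch 2 (58.5 at most). ILCP held 158, 509 and 1397 CPM (688 ± 638), and ILC2P 173 to 1447 CPM (median 1046, mean 955 ± 475).

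Every ILC2P library lay above every CILP library for Ccr9, and the log2 fold change was 3.88 (SE 0.77, adjusted p = 0.000967), with 4.47 in batch 1 and 3.56 in batch 2 (adjusted p = 0.0619 in batch 2 alone). From CLP to ILC2P it was 3.50 (SE 0.72, adjusted p = 0.000579), with 2.52 in batch 1 and 4.69 in batch 2, both called. From CILP to ILCP it was 3.29 (SE 0.87, adjusted p = 0.0681), with ranges that touched at 1 library, ILCP replicate 1 at 158 CPM. In that library the erythroid list took 1.16% of counts and the NK list 0.134%, against 0% and at most 0.0037% in the other 2 ILCP libraries, and the part of other cells in its level was not tested. The difference between ILC2P and ILCP was 0.59 (SE 0.90, adjusted p = 0.906).

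Ccr7 went the other way. CLP held 0 to 101.8 CPM (median 60.0, mean 56.4 ± 40.8), with counts in 7 of 8 libraries, and α4β7+ CLP 126, 39.2, 8.2, 92.8 and 93.4 CPM. CILP was mixed: replicates 1 and 2 held 264 and 338 CPM, replicates 5 and 6 held 35.6 and 14, and the other 3 libraries had no count. The mature T cell list took 0.554% and 0.405% of counts in replicates 1 and 2, 0.24% and 0.561% in replicates 3 and 4, which had no Ccr7 count, and 0.0179% to 0.0497% in the 3 libraries of batch 1, against at most 0.00426% in CLP. Ccr7 is also a gene of T cells, and their part in its level was not tested. ILCP had counts in 1 of 3 libraries (9.9 CPM), and all 8 ILC2P libraries were at 0, where 3 counts over the group would be 5.67 CPM.

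Against that level of 3 counts, Ccr7 was at least 9.93-fold lower in ILC2P than in CLP (adjusted p = 0.00706) and at least 16.4-fold lower than in CILP (adjusted p = 0.00521), or 9.21-fold without CILP replicate 2. The ranges overlapped at 0 in both cases. Neither batch alone called either difference, with adjusted p from 0.0687 to 0.363. ILC2P were the shallowest libraries, so a low level of Ccr7 in a single pool was not detectable at this depth.

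Cxcr5 had counts in all 7 CILP libraries (31.7 to 238 CPM, median 59.5, mean 89.9 ± 69.0) and in fewer of the others. In CLP 6 of 8 libraries were at 0, 1 held 7.7 and replicate 7 held 195 CPM. The difference from CLP to CILP was 2.87 (SE 0.96, adjusted p = 0.0675) and was called by DESeq2 alone (adjusted p = 0.0227). Means were 19.0 ± 30.5 CPM in α4β7+ CLP, 74.7 ± 80.4 in ILCP and 20.1 ± 27.7 in ILC2P. All means that were neighbours in rank lay within 1 SD, and the groups overlapped. The means of α4β7+ CLP and CILP, which are not neighbours in rank, lay slightly more than 1 SD apart. Cxcr3 was near the limit of detection in WT mice, with 13 counts over the 7 CILP libraries, 4 over CLP, 3 over ILCP and 0 over α4β7+ CLP and ILC2P, and no highest value above 35.0 CPM.

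**Figure D2:**
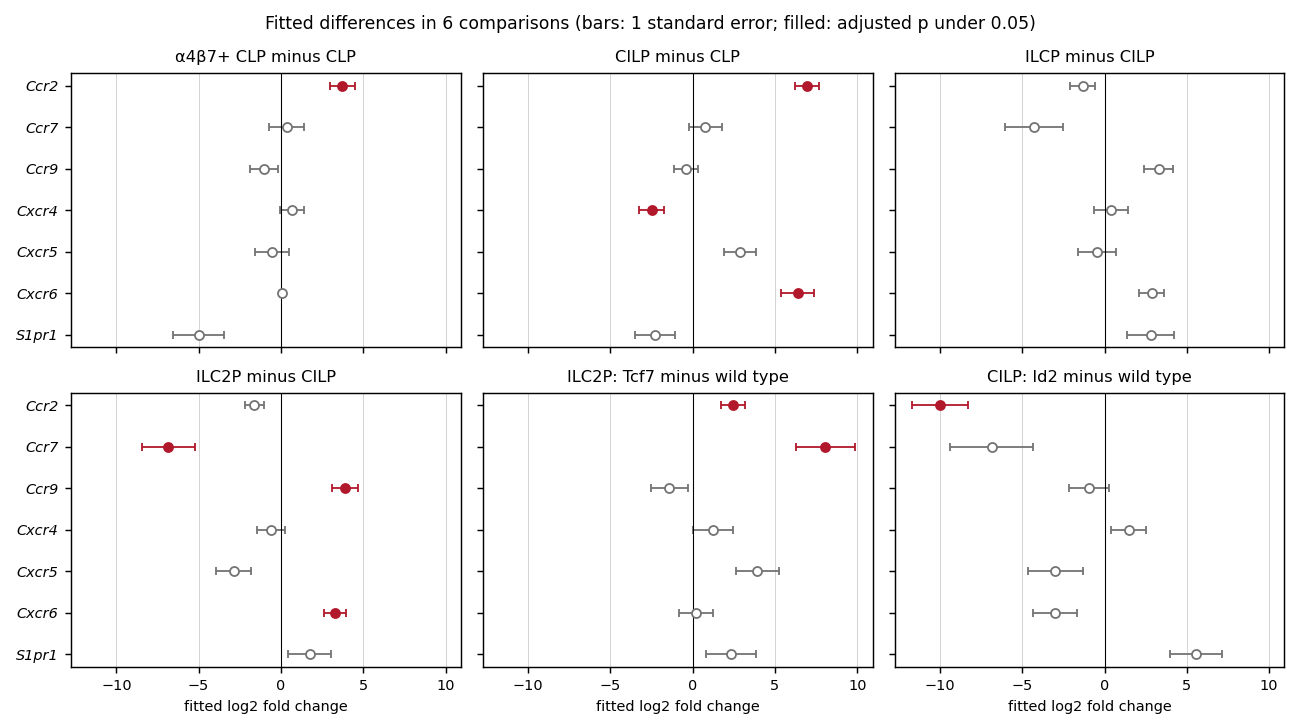
Fitted log2 fold change of the 7 tested receptors in 6 comparisons, with bars of 1 standard error, and filled red points where the adjusted p was under 0.05. Ccr2 is the only receptor called from CLP to α4β7+ CLP, and Ccr9 and Cxcr6 stand on the right in both comparisons that follow CILP, called only for ILC2P. For a receptor at 0 in 1 group the point depends on the prior count.

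The genes around Ccr9, Cxcr6 and Ccr2 did not all share their pattern. Lztfl1, the neighbour before Ccr9, held 45.5 CPM in CLP, 27.3 in CILP, 588 in ILCP and 588 in ILC2P on average, and it was called higher from CILP to ILCP (log2 fold change 4.47, SE 0.93, adjusted p = 0.00407) and to ILC2P (4.49, SE 0.84, adjusted p = 0.000178). It was singled out after its values were seen. In GENCODE a longer Ccr9 transcript spans Lztfl1 on the opposite strand with 0 shared exonic bases. Across the 31 WT libraries log2(CPM + 1) of Ccr9 and Lztfl1 had a Pearson r of 0.45, and across the 11 ILCP and ILC2P libraries -0.04. Fyco1, between Ccr9 and Xcr1, held 76.8, 60.6 and 124 CPM in CLP, CILP and ILC2P and was not called in any comparison.

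**Figure D3:**
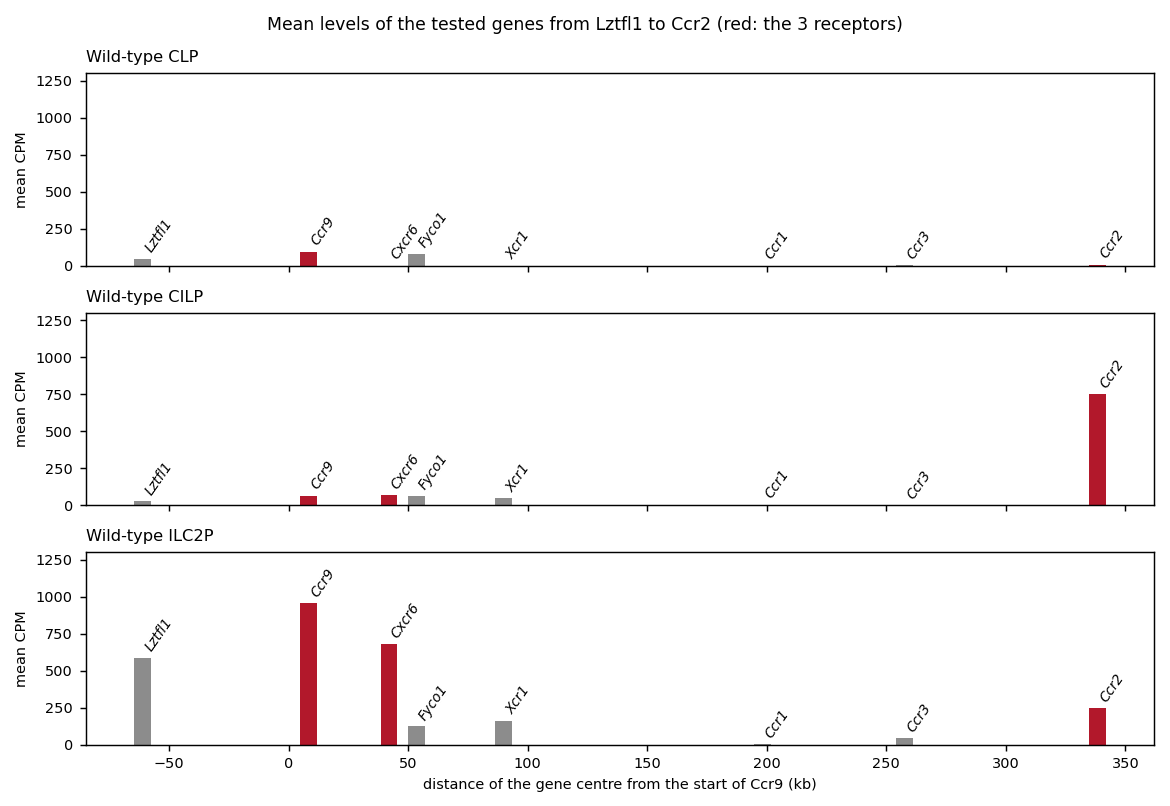
Mean CPM of the tested genes from Lztfl1 to Ccr2 in WT CLP, CILP and ILC2P, against the distance of each gene's centre from the start of Ccr9 in kb, on linear axes. Ccr2 is the tall bar in CILP at 748 CPM, and Ccr9, Cxcr6 and Lztfl1 are the tall bars in ILC2P at 955, 680 and 588 CPM.

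Joint detection follows from the levels above, and in pools it does not show that the same cells held both transcripts. Ccr2 and Cxcr6 were found together in 0 of 8 CLP, 0 of 5 α4β7+ CLP, 7 of 7 CILP, 3 of 3 ILCP and 8 of 8 ILC2P libraries. Ccr7 and Cxcr4 were found together in 7 of 8 CLP and 5 of 5 α4β7+ CLP libraries, 4 of 7 CILP and 0 of 8 ILC2P libraries. As a description over the 31 WT libraries, which share populations, batches and depth, log2(CPM + 1) of Cxcr6 had a Pearson r of 0.74 with Ccr2, 0.60 with Ccr9, -0.67 with Ccr7 and -0.64 with Cxcr4.

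The genes most like each receptor over the same 31 libraries were sought among 7293 genes by Pearson r of log2(CPM + 1). For Cxcr6 they were Bcl11b (r = 0.902), a transcription factor of T cells and group 2 innate lymphoid cells, Icos (0.882), a costimulatory receptor, and Skap1 (0.871), an adaptor of antigen receptor signalling. Bcl11b, unlike Cxcr6, was already at 517 CPM in CILP and at 551 in ILC2P. For Ccr2 they were Lmo4 (0.855), a LIM domain cofactor that averaged 2547 CPM in CILP against 107 in CLP, Itgb3 (0.832), the integrin β3 chain, and Ahcyl2 (0.819).

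For Ccr9 the nearest genes were Phlda1 (0.849), Rnf128 (0.734), an E3 ubiquitin ligase that averaged 1.1 CPM in CILP and 1821 in ILC2P, and Slc7a8 (0.716), an amino acid transporter. For Ccr7 they were Cmah (0.831), Irf8 (0.797) and Cnn3 (0.792). Irf8, a transcription factor of dendritic and myeloid cells, averaged 1330.0 CPM in CLP and 13.1 in CILP, and the list of 12 dendritic cell markers took 0.307% to 1.44% of counts in CLP, 0.037% to 0.101% in CILP and 0.0071% to 0.0513% in ILC2P. The part of dendritic progenitors in the level of Ccr7 was not tested. For Cxcr4 the nearest were Mif (0.787), Tmpo (0.757) and Hnrnpd (0.745), for Cxcr5 Ddit4 (0.793), Unc119 (0.736) and Furin (0.733), and for S1pr1 no gene exceeded 0.58 (Snap29).

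In the knockouts the targeted transcripts were checked first. Tcf7 held 31.1 ± 26.2 CPM in TCF7 CILP (n = 4), 63.4 at most, and 445 ± 253 in WT CILP (n = 7), 166 at least. In CLP and ILC2P Tcf7 was low in both genotypes (12 ± 11.9 and 1.0 ± 2.9 CPM in CLP), so it checks nothing there. Id2 held 27.1 and 116 CPM in Id2 CILP and 79.6 to 2286 CPM in WT CILP, of which the 3 libraries of the same batch held 1084 to 2286. In CLP it was at 0 in both Id2 libraries and in 6 of 8 WT libraries, so it checks nothing there. A 3′ tag can lie outside the deleted part of a gene, so a remaining count says little.

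In Id2 CILP no Ccr2 was counted. Both Id2 CILP libraries had no Ccr2 count in 160289 and 224239 counts, whereas the 7 WT CILP libraries held 297 to 1207 CPM. Ccr2 was at least 95.8-fold lower, against 3 counts over the group (log2 fold change -9.98, adjusted p = 0.000516). It was the only receptor called, where 0.0911% of all genes were (0.0365% lower). The single Id2 ILCP library also had no Ccr2 count. With only 1 of the 2 Id2 CILP libraries the fit gave -9.95 and -9.94, but the adjusted p was 0.126 and 0.0953 and the bound 55.1-fold and 40.7-fold.

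In Id2 CLP Ccr2 was not lower. The 2 libraries held 27.6 and 190.7 CPM, both above the highest WT CLP library of 11.9, and Ccr2 was called higher (log2 fold change 4.01, SE 0.89, adjusted p = 0.0455), where 0.0365% of all genes were called (0.0273% higher). The dendritic list took 1.43% and 1.73% of counts in these libraries, against 1.21% to 1.44% in the 3 WT CLP libraries of the same batch, and its marker Siglech was at 1412 and 1780 CPM against 1281 at most. The part of dendritic cells in the level of Ccr2 was not tested. The call rested on few counts: without Id2 CLP replicate 2 it was 2.08 (adjusted p = 1.0), and without any 1 of WT CLP replicates 1, 4, 6, 7 and 8 the adjusted p was 0.104 to 0.169. The change of Ccr2 from CLP to CILP differed between genotypes by -13.99 on the log2 scale (SE 1.95, adjusted p = 9.22e-07), a value that depends on the prior count, and no other receptor was called in this test of the difference (0.0365% of all genes called, all with a lower difference).

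Other transcripts moved with this result. In Id2 CILP the 13 genes of an innate lymphoid list took 0.132% and 0.175% of counts, against 0.474% to 1.03% in WT CILP. Il7r, which encodes the IL-7 receptor of lymphoid progenitors, held 130 ± 68.1 CPM against 1449 ± 764, Zbtb16 held 38.9 ± 23.0 against 339 ± 111, and Gata3 117 ± 26.6 against 2120 ± 1231. Kit was at 634 ± 109 CPM against 282 ± 147 and Il1rl1 at 178 ± 34.3 against 1.0 ± 2.6, both above the highest WT CILP library, and the erythroid list took up to 0.228% of counts against 0.0911% at most in WT CILP. The part of the makeup of the sorted Id2 pools in the level of Ccr2 was not tested.

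The other receptors of Id2 CILP were not called. Cxcr6 held 0 and 9.0 CPM, below the WT minimum of 11.9 (adjusted p = 0.691), and Ccr7 was at 0 in both libraries, as in 3 of 7 WT libraries. Cxcr4 held 239 and 109 CPM, against 45.4 ± 54.1 in WT (adjusted p = 0.932). The WT CILP libraries of the same batch averaged 91.8 CPM of Cxcr4 (35.0 to 130.6), a range that held the lower Id2 value. S1pr1 held 221 and 63.3 CPM, both above the highest WT library of 15.2, with a log2 fold change of 5.56 (SE 1.60, adjusted p = 0.156). S1pr1 was also at 429 CPM in the Id2 ILCP library, and at 0 in both Id2 CLP libraries. That ILCP library held Cd3e at 522 CPM and S100a8 at 6136 CPM, and erythroid markers took 1.8% of its counts, so its label is not borne out by these markers.

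**Figure D4:**
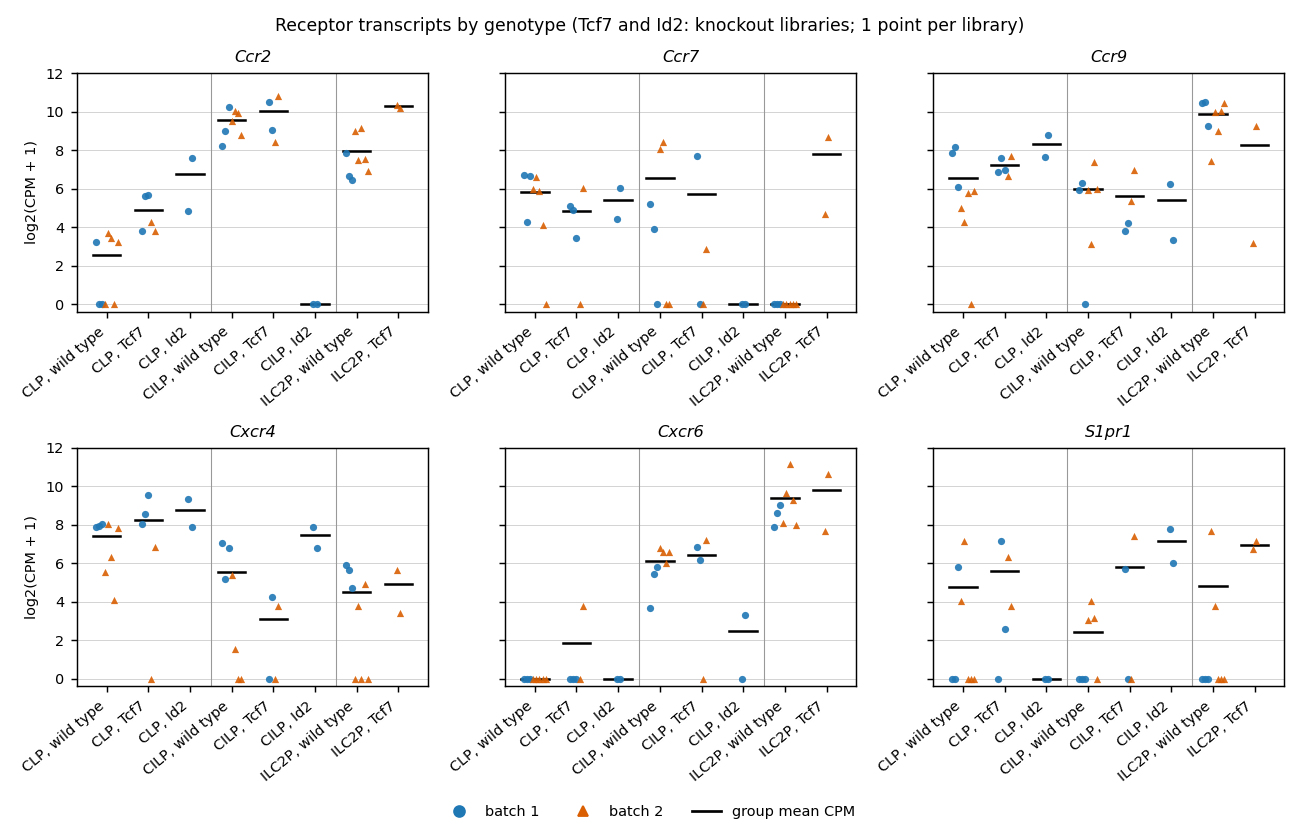
Level of 6 receptors in every library of CLP, CILP and ILC2P by genotype, as log2(CPM + 1), with circles for batch 1, triangles for batch 2 and bars for the group mean. Ccr2 is at 0 in both Id2 CILP libraries and in the WT range or above it in TCF7 CILP, and Ccr7 is at 0 in WT ILC2P and present in both TCF7 ILC2P libraries.

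Absence of Tcf7 left no receptor called in CLP or CILP. Over all genes 0% were called in TCF7 CLP and 0.501% in TCF7 CILP. At an unadjusted p under 0.05 there was 1 of the 7 tested receptors in each (Ccr2 in CLP and S1pr1 in CILP). Of all 10972 genes there were 713 in CLP and 1215 in CILP. DESeq2 called 0 receptors in both, and 1 and 93 of all genes. Ccr2 held 17.9, 12.8, 13.1, 47.7 and 49.7 CPM in TCF7 CLP, all above the highest WT CLP library of 11.9 (log2 fold change 2.21, SE 0.79, adjusted p = 0.517). In TCF7 CILP it held 339.9, 1816, 1468 and 534 CPM, which overlapped WT CILP (log2 fold change 0.46, SE 0.64, adjusted p = 0.86). Cxcr6 was present in 3 of 4 TCF7 CILP libraries (149, 115 and 71.1 CPM) at levels that overlapped WT CILP. The 4th, replicate 1, had no count of Cxcr6, Ccr7, Cxcr3, Cxcr4, Cxcr5 or S1pr1 in 44089 counts. The myeloid list took 1.08% of counts in replicate 1 and 1.19% in replicate 4, and the erythroid list 1.31% and 3.50%, and replicate 4 held Cxcr6 at 71.1 and Cxcr5 at 88.9 CPM. The change from CLP to CILP differed between TCF7 and WT for no receptor, where 0.0456% of all genes were called. In this test 0 receptors and 996 of all 10972 genes had an unadjusted p under 0.05. DESeq2 called 0 receptors and 21 genes. A p above the threshold does not show that the genotypes are alike.

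In ILC2P 2 receptors were called higher in TCF7 mice, where 2.57% of all genes were called (2.54% higher). Ccr2 held 1294 and 1179 CPM, both above the highest WT ILC2P library of 560.0 (log2 fold change 2.44, SE 0.73, adjusted p = 0.0471). On unscaled totals the ranges overlapped, at 634.7 and 977 CPM against 99.6 to 805.5. The difference stayed called in only 2 of 9 other settings and 2 of 10 fits without 1 library. Ccr7 held 24.3 and 417 CPM, against 0 in all 8 WT libraries, at least 38.9-fold higher (adjusted p = 0.00342), and without replicate 2 the bound was 4.28-fold, the log2 fold change 4.89 rather than 8.05 and the adjusted p 0.373. Without replicate 1 the bound was 73.5-fold. Ccr9 held 8.1 and 607 CPM and Cxcr6 202 and 1606 CPM, so the 2 libraries differed from each other many times over, and neither gene was called (adjusted p = 0.595 and 1.0).

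The 2 TCF7 ILC2P libraries also differed in markers of other cells. In replicate 1 the 5 plasma cell markers took 19.8% of counts and the myeloid list 1.07%. In replicate 2 these were 0.0193% and 0.0121%, and the 10 markers of mature T cells took 0.795%. WT ILC2P held at most 0.0601% of plasma cell, 0.512% of myeloid and 0.108% of mature T cell counts. Both libraries were of batch 2, and their totals of 252100 and 248697 counts were over those of every WT ILC2P library. The part of other cells or of depth in the 2 calls was not tested.

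Other genes of the same pathways were taken from lists, which were also chosen with earlier results of these data known. Of 18 further chemokine receptors 9 were tested and 1 was higher in CILP than in CLP (2.34% of all genes were), Xcr1, which lies between Cxcr6 and Ccr2 and held 45.1 ± 45.5 CPM in CILP and 0 in all CLP libraries (adjusted p = 0.00883). Xcr1 was also called from CLP to ILC2P (160 ± 278 CPM, adjusted p = 0.000446, with 3.46% of all genes higher), though only 3 of 8 ILC2P libraries held it. Ccr3, the eotaxin receptor, was called from CILP to ILC2P (43.1 ± 76.3 CPM against 0, adjusted p = 0.0479, with 1.1% of all genes higher), with counts in 3 of 8 libraries. Ccr1, a receptor of myeloid cells, was called higher in TCF7 CILP (152 ± 240 CPM against 2.8 ± 5.1, adjusted p = 0.037) and TCF7 ILC2P (adjusted p = 0.00313). In TCF7 CILP replicates 1 to 4 it held 0, 504, 102 and 0 CPM. There the myeloid list took 1.08%, 0.101%, 0% and 1.19% of counts. In TCF7 ILC2P replicates 1 and 2 it held 469 and 146 CPM, where that list took 1.07% and 0.0121%. The part of myeloid cells in the level of Ccr1 was not tested. Ccrl2 in TCF7 CILP and Ccr6 in TCF7 ILC2P were called higher as well, so that 2 of the 9 were called in each of these groups (0.501% and 2.57% of all genes were called), and no further receptor of the list was called in any of the 14 comparisons.

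Of 36 names of receptor signalling genes 32 were tested, and from CLP to CILP 4 were higher and 0 lower (2.34% and 1.97% of all genes). Among them were Rgs14 (97.8 ± 118.5 CPM against 4.6 ± 13.0, adjusted p = 0.00527) and Rgs3 (109 ± 61.3 CPM against 4.1 ± 6.4, adjusted p = 0.0161), which encode regulators that end G protein signals, and the kinase gene Jak2 (adjusted p = 0.00414). From CILP to ILC2P 0 were higher and 3 lower (1.1% and 4.22% of all genes). These were Gnai2, the Gi subunit that couples chemokine receptors (1039 ± 200.5 CPM in CILP and 365 ± 265 in ILC2P, log2 fold change -1.62, adjusted p = 0.00954), Rgs2 and Rgs3. Their direction goes with the shift of all genes in this comparison. The list's median log2 fold change was 0.07 from CLP to CILP and -0.41 from CILP to ILC2P.

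Of 11 genes of the sphingosine-1-phosphate axis 9 were tested. From CLP to CILP and from CILP to ILC2P 0 were called, from CLP to ILC2P 1 was lower, where 8% of all genes were (Spns2, an exporter of sphingosine-1-phosphate, adjusted p = 0.044), and in TCF7 ILC2P 1 was higher, where 2.54% of all genes were (S1pr3, adjusted p = 0.0338). Of 12 ligands of the receptors 1 passed the filter on counts and 0 were called. Of 14 adhesion genes 13 were tested, with 1 higher and 1 lower from CLP to CILP (2.34% and 1.97% of all genes) and 1 higher and 3 lower from CLP to ILC2P (3.46% and 8% of all genes). The 2 higher were Itga4 in CILP (1040 ± 366 CPM against 358 ± 147, adjusted p = 0.0129) and Itgb7 in ILC2P (499.8 ± 452 CPM against 59.2 ± 86.3, adjusted p = 0.00148), the 2 chains of the integrin α4β7.

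For 1 CLP and 1 CILP sample, repeat runs of the same sample were deposited, 3 runs each with 23088 to 169683 counts. They were summed for all values above. By run and unscaled total, S1pr1 in CLP replicate 2 held 16, 0 and 590.1 CPM and Cxcr4 344.6, 0 and 26.8. Cxcr6 in CILP replicate 1 held 176.8, 0 and 0 CPM, while Ccr2 held 825, 187 and 556. In 13 pairs of sample and receptor with any count, 11 had at least 1 run at 0 and 7 had a run above every library of the group. In these 2 samples a receptor at 0 in 1 run was often counted in another.

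**Figure D5:**
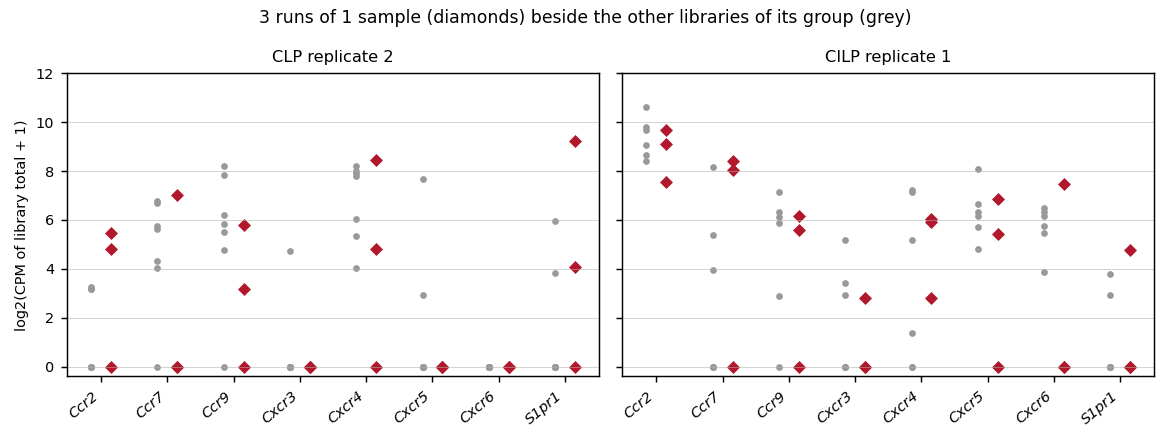
Levels of the 8 receptors in the 3 runs of CLP replicate 2 and of CILP replicate 1 (red diamonds) and in the other libraries of the group (grey points), as log2(CPM of the library total + 1). The runs of 1 sample cover much of the range of its group, from 0 to 590.1 CPM for S1pr1 in CLP.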

How the data were processed

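The deposited values are read counts per gene from CEL-seq of pools of 100 sorted cells, in 2 tables of 27179 genes, 1 per batch. Per the submitters' processing notes the authors used CASAVA 1.8.2, featureCounts, limma and edgeR (3.8.2 and 3.22.0) and the mouse build mm10, and no source used here names the aligner. All value columns were matched to a sample (0 were not). Of 70 samples, 4 technical repeats were summed into their 2 parent libraries. The 12 control wells, 6 libraries of a further genotype (Nfil) that the submitters call an unsuccessful knockout and 1 CILP library they call an outlier were left out, leaving 47 libraries. Gene identifiers were matched to RefSeq for 93.0% of genes.

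The counts were tested with edgeR 4.0.16 in R 4.3.3 (filterByExpr with a minimum count of 10 and total of 15, trimmed mean of M values, robust quasi-likelihood fit of group means with a batch term, 35 residual degrees of freedom, biological coefficient of variation 109.7%). Benjamini-Hochberg adjustment ran over 10972 genes, with calls under 0.05. Standard errors are approximate, from the fold change and its F statistic. A group at 0 was set at 3 counts over the group for bounds, and these bounds cover counting error only. The procedure was tested on simulated data for CILP against CLP over 8780 genes: of genes changed 64-fold, 50 of 50 raised and 37 of 50 lowered were recovered, of genes changed 8-fold 13 of 50 and 10 of 50, and 2 of 112 calls were of unchanged genes. Alternatives were DESeq2 1.42.0, median-of-ratios scaling, fits without the filter or without the batch term, fits within a batch, fits of the compared groups only, return of the left-out CILP library, removal of shallow libraries or of repeat runs, and removal of any 1 library.

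All 8 receptors are named, with the 3 genes most alike to each tested one (among those of at least 20 CPM on average) and, from the pathway lists, up to 6 called genes per comparison. The members and lists were chosen with earlier results of these data known. Of the marker lists not described with the results, the 12 B lineage genes took 0% to 0.549% of counts over all groups and the 8 NK genes 0% to 0.134%. The libraries' total counts limit the precision of low levels. Promoter windows come from RefSeq and exons from GENCODE M21. Some genes of the pathway lists are not reported here by name.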

Additional observations from a re-analysis of the deposited data

Results flagged for a closer look

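In 12 of 42 groups of 4 to 10 libraries, the highest library stood far from the rest by Dixon's test at 95%. For normally distributed values chance alone gives this in about 1 of 20 groups. Many of the flagged groups are mostly at 0, where 1 library with a count can be flagged by that alone. The 12 can therefore not be read against that rate. In TCF7 CLP, the flags of Cxcr6 and of Cxcr3 each rest on 1 count. For Ccr2 it was α4β7+ CLP replicate 4 (328.1 CPM), and for Ccr7 TCF7 CILP replicate 3 (204.2 CPM). For Cxcr5 these were WT CLP replicate 7 (195.4 CPM) and WT CILP replicate 5 (237.5 CPM). For Cxcr6 they were WT ILC2P replicate 3 (2319.9 CPM, in a library of 26072 counts) and TCF7 CLP replicate 2 (12.8 CPM). For S1pr1 they were WT CLP replicate 2 (143.1 CPM) and WT ILC2P replicate 1 (207.2 CPM, in a library of 19322 counts). For Cxcr3 they were WT CLP replicate 7 (24.4 CPM), WT CILP replicate 6 (35.0 CPM), TCF7 CLP replicate 3 (6.5 CPM) and TCF7 CILP replicate 2 (19.0 CPM).

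The change of Ccr2 from CLP to CILP differed between Id2 and WT mice by -13.99 on the log2 scale (adjusted p = 9.22e-07, edgeR).

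The Nfil libraries, which no comparison used, also carried receptor counts. Those of CLP held 187861 and 102867 counts in all and those of ILC2P 35136 and 35051, against 9439 at most in a control well. Raw counts of these libraries and of the wells are therefore not comparable. The 2 CLP libraries held 5 and 9 counts of Ccr7, 19 and 13 of Ccr9 and 45 and 14 of Cxcr4. The 2 ILC2P libraries held 47 and 137 counts of Ccr9 and 29 and 27 of Cxcr6.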

How the results depend on the processing

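Of 20 called differences of single receptors, 463 alternative values were computed, of which 407 were called in the same direction, 56 lost the call and 0 changed sign. The 5 called in every alternative were Ccr2 from CLP to CILP, Ccr2, Ccr9 and Cxcr6 from CLP to ILC2P, and Ccr2 in the test of the Id2 difference. With unscaled CPM 0 of 40 levels in WT groups moved by more than 1 SD.

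The number of receptors called changed as follows, and the cause was not tested except where noted. From CLP to α4β7+ CLP it was 1, and 0 in batch 2 alone, with only the compared groups, and without 1 library 0 to 1. From CLP to CILP it was 3, and 1 in batch 1 alone or with only the compared groups. From α4β7+ CLP to CILP it was 3, and 0 in batch 1 alone. From CILP to ILCP it was 0, 1 with median-of-ratios scaling, no filter or batch 1 alone, 2 with only the compared groups, the outlying CILP library put back or DESeq2, and 0 to 1 without 1 library. From CILP to ILC2P it was 3, and 0 in batch 2 alone. From CLP to ILC2P it was 5, 3 in batch 2 alone and 2 with only the compared groups. In TCF7 ILC2P it was 2, 1 with median-of-ratios scaling, no filter, no batch term, the outlying library put back or DESeq2, 0 in batch 2 alone or with only the compared groups, and 0 to 2 without 1 library. In Id2 CLP it was 1, 0 with median-of-ratios scaling, only the compared groups, the outlying library put back or DESeq2, and 0 to 1 without 1 library. In Id2 CILP it was 1, and 0 to 1 without 1 library. With only the compared groups fewer receptors passed the filter (2 from CLP to CILP, to α4β7+ CLP and to ILC2P, 3 in TCF7 ILC2P). Where leaving out a library left an arm with 1 library, that library was assumed to vary like the other groups.

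Over all genes edgeR and DESeq2 called 5 and 14 from CLP to α4β7+ CLP, 41 and 92 from CILP to ILCP, 0 and 1 in TCF7 CLP, 55 and 93 in TCF7 CILP, 282 and 156 in TCF7 ILC2P, 4 and 2 in Id2 CLP, 10 and 44 in Id2 CILP, and 5 and 21 and 4 and 15 in the tests of the TCF7 and Id2 differences. The median log2 change of all genes with trimmed mean of M values and with median-of-ratios factors was -0.43 and -0.18 from CLP to ILC2P, -0.32 and -0.06 in TCF7 CILP, and 0.19 and -0.08 in TCF7 ILC2P. No paired analysis was possible because the replicate numbers were given in accession order and pair no samples. Depth limits the receptors of few counts: Cxcr3 could not be tested, and the ILC2P libraries are the shallowest.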
